A study of Mus musculus with 10 samples.

Results

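Hox genes encode homeodomain transcription factors that lie in 4 chromosomal clusters and keep, in adult tissues, much of the head-to-tail order in which embryos switch them on. All genes whose deposited symbol is Hoxa, Hoxb, Hoxc or Hoxd followed by a number were taken, which gave 38 of the 42989 genes in the tables. They are described here in the distal ileum of 10 wild-type (WT) male C57BL/6J mice with diet-induced obesity (DIO). Gavage began at 10 weeks of age and lasted 4 weeks. The 5 treated mice received 10 mg per kg of TDCA, which is taurodeoxycholic acid, a bile acid made by gut bacteria and linked to taurine by the liver. The 5 controls received an equal volume of water. Obesity, strain, genotype and sex were common to both groups. RNA came from pieces of about 20 mg of frozen tissue, so every value is a mixture of the cell types in 1 piece of 1 mouse.

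Within a cluster, genes at the 3′ end (paralogue group 1) are active earliest and farthest forward in the embryo, and genes at the 5′ end (group 13) latest and farthest back. Genes with the same number in different clusters are paralogues, and not every cluster holds every number. In the gut the code is carried mainly by the mesenchyme and muscle, with some members also in the epithelium and the enteric nervous system. Hoxa13 and Hoxd13 pattern the hindgut, and Hoxb13 marks the distal colon. The ParaHox factor Cdx2 defines the intestinal epithelium and, with Cdx1, activates Hox genes in the embryo. Pbx and Meis proteins bind DNA together with Hox proteins.

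The clusters also carry microRNA genes. Their mature sequences are shown because their seeds are shared between clusters and because one locus, Mir196a-1, had a measurable host-region signal described below. Capitals mark the seed, bases 2 to 8. The sequences are from RefSeq on GRCm38.p6, at chr11:96317186-96317208 for miR-10a, chr2:74726074-74726096 for miR-10b, chr11:96265187-96265208 for the Mir196a-1 copy of miR-196a and chr6:52230129-52230150, minus strand, for miR-196b.
mmu-miR-10a-5p: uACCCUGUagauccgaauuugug
mmu-miR-10b-5p: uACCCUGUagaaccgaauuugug
mmu-miR-196a-5p: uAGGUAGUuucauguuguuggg
mmu-miR-196b-5p: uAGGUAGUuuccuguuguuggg
The 2 miR-10 sequences share a seed, and so do the 2 miR-196 sequences. Hoxb8 is a textbook target of miR-196. Of the transcripts of the 38 members, Hoxb8 held the best ungapped match, with 21 of 22 bases paired, at chr11:96284888-96284909 (GRCm38, GENCODE M21, plus strand) in its 3′ untranslated region. The best match in any other member paired 15 of 22. The capital letter is the base that is not a Watson-Crick partner.
Hoxb8 site for miR-196a: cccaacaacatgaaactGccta

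Promoter sequence was available for 22 of the 38 members. It was searched on both strands for TTTATNG, letters typical of Cdx binding, in the 250 bases before each start site. The letters occurred in the promoters of Hoxb8 and Hoxd4 and in 9.81% of all 32851 promoters. In Hoxb8 they occurred 3 times, beginning 199, 120 and 110 bases before the start, and in Hoxd4 once, 45 bases before it. The stretches holding them are shown with the matches in capitals, at chr11:96281661-96281846 and chr2:74721888-74721977, both on the plus strand of GRCm38.p6 (RefSeq). A match of letters is not evidence of binding.
Hoxb8: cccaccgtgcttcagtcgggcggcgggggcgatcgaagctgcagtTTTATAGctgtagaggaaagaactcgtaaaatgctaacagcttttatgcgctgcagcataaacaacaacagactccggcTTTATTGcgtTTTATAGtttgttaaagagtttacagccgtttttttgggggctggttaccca
Hoxd4: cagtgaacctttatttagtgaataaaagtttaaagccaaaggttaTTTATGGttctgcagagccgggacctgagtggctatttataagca

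Values below are normalized counts, which are reads per gene divided by the authors' size factor for the library. Libraries held 27349003 to 44342245 reads on genes, of which 965 (water 1) to 5216 (TDCA 4) lay on Hox genes. Where genes are compared with each other, the level is per kilobase (kb) of exon, with lengths from GENCODE M21. Several libraries stood apart in markers of gut position, as given before the group comparison. The labelled tissue carried its defining marker: Fabp6, the ileal bile acid binding protein, had 28629 to 105767 normalized counts, and its lowest value was in TDCA 2.

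The ileal Hox profile was a mid-cluster one. Genes of paralogue groups 4 to 8 made up 83.1% ± 2.33 (SD, n = 10) of the summed Hox level per kb. Groups 1 to 3 held 8.07% ± 1.47, groups 9 and 10 held 8.71% ± 3.19, and groups 11 to 13 held 0.163% ± 0.226. Measured as detection, 21 of the 38 members reached 10 normalized counts in at least 5 libraries, the filter used for testing. All 15 members of groups 4 to 8 did so, with 3 of 8 in groups 1 to 3 (Hoxb2, Hoxa3 and Hoxb3). In groups 9 and 10 it was 3 of 7 (Hoxa9, Hoxb9 and Hoxc9), and in groups 11 to 13 it was 0 of 8. The summed level per kb was 104 ± 53.5 for group 9 and 4.88 ± 5.33 for group 10. Of the group 9 level, Hoxb9 alone had 80.5, and cluster b has no group 10 gene. In cluster a the mean was 2.52 for Hoxa9 and 1.65 for Hoxa10. In cluster c it was 16.4 for Hoxc9 and 2.39 for Hoxc10, and in cluster d 4.37 for Hoxd9 and 0.847 for Hoxd10.

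**Figure D1:**
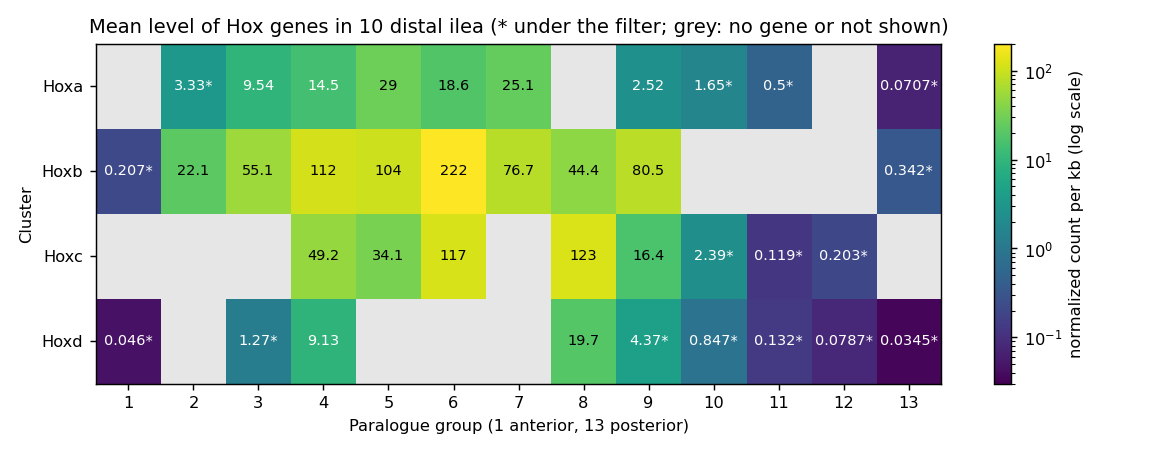
Mean level of the members over 10 libraries as normalized counts per kb of exon (colour on a log scale), with clusters in rows and paralogue groups in columns. The brightest cells are those of groups 3 to 9 of Hoxb and of the Hoxc genes present in groups 4 to 8. Values marked * belong to members under the filter.

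Cluster b dominated, with 57.9% ± 9.53 of the summed level per kb, followed by cluster c with 29.4% ± 6.08. Clusters a and d held 9.60% ± 3.71 and 3.07% ± 0.869. The same paralogue group thus differed widely between clusters. In group 6 the level per kb was 222 ± 121 for Hoxb6, 117 ± 40.4 for Hoxc6 and 18.6 ± 8.75 for Hoxa6. In group 9 it was 80.5 ± 41.6 for Hoxb9, 16.4 ± 12.2 for Hoxc9, 4.37 ± 3.72 for Hoxd9 and 2.52 ± 2.96 for Hoxa9. The median of all genes passing the filter was 62.6 per kb.

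Ordered by level per kb, the 8 highest members were Hoxb6, Hoxc8 (123 ± 44.3), Hoxc6, Hoxb4 (112 ± 46.6), Hoxb5 (104 ± 57.8), Hoxb9, Hoxb7 (76.7 ± 25.9) and Hoxb3 (55.1 ± 22.3). From Hoxc8 down, neighbours in that order differed by less than either SD over libraries. Hoxb6 and Hoxc8 differed by less than the SD of Hoxb6 and more than that of Hoxc8. The length used matters for Hoxc6, whose level was 178 per kb with its longest transcript in place of all its exons. Exons of Hoxb3 overlap the antisense gene Hoxb3os over 52.9% of their length, and those of Hoxb2 overlap it over 27.3%. Antisense genes also cover 25.4% of the exon length of Hoxa3, 20.4% of that of Hoxa7 (Hoxaas3) and 16% of that of Hoxa4. Because the strand setting of the counting is not given, reads of such pairs cannot be told apart. Hoxd3 and Hoxd4 share 62.4% and 52.3% of their exon length with each other and with Gm28230, and their split is uncertain.

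As a yardstick for stray reads, 1603 olfactory and vomeronasal receptor genes, which serve smell and are not known as gut genes, had a median of 0.171 and a 95th percentile of 0.472 normalized counts per kb. Above that percentile were 29 Hox members. The 9 at or below it were Hoxa13, Hoxb1, Hoxb13, Hoxc11, Hoxc12, Hoxd1, Hoxd11, Hoxd12 and Hoxd13. Every member had at least 1 read in some library. Of the 17 under the filter, 7 (Hoxa13, Hoxc11, Hoxc12, Hoxd1, Hoxd11, Hoxd12 and Hoxd13) had 3 reads or fewer in each library, the limit that a count of 0 allows, equal to 2.57 to 3.60 normalized counts. Hoxa13 and Hoxd13, the hindgut pair, had 2 reads and 1 read in all 10 libraries together. Among the others under the filter were Hoxa2, Hoxa10, Hoxa11, Hoxb1, Hoxb13, Hoxc10, Hoxd3, Hoxd9 and Hoxd10, whose means over 10 libraries ran from 0.480 (Hoxb1) to 9.33 (Hoxd9). Hoxc13 was not analysed here.

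Markers of position along the gut differed widely between libraries. Gata4, the factor that maintains jejunal identity, had 637, 62.8, 174, 390 and 82.5 normalized counts in water 1 to 5 and 78.8, 438, 224, 36.8 and 13.3 in TDCA 1 to 5. Lct, the brush border lactase of the proximal small intestine, had 21207, 977, 4881, 16846 and 1263 in water and 497, 20823, 4723, 1279 and 224 in TDCA. Both were highest in water 1, water 4 and TDCA 2. Other proximal markers had other orders. Fabp1, a fatty acid binding protein, was highest in water 1 (31251) and TDCA 2 (13190), but TDCA 3 (10891) exceeded water 4 (9516). Slc40a1, the iron exporter, was low in the same 3 libraries (659, 711 and 405) but also in water 2 (688), and highest in water 5 (1773). Onecut2, a homeobox factor, was lowest in water 4 (4.78), and Cybrd1, an iron reductase, was highest in water 2 (177). Pdx1 and Onecut3 were under the filter. Of the 8 proximal markers listed, 6 passed the filter, and their sum ran from 4403 to 53886 in water and from 2114 to 35078 in TDCA libraries.

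Colon markers singled out other libraries. Car1, carbonic anhydrase 1 of colonocytes, had 4.80, 1.12, 4406, 0 and 0 normalized counts in water and 4.38, 11.2, 13827, 11707 and 38.1 in TDCA. Aqp8, a water channel of the colon epithelium, had 67.7 in water 3, 1072 in TDCA 3 and 406 in TDCA 4, and at most 2.24 in the other 7 libraries. The 7 colon markers in the tables, of which 5 passed the filter and Hoxb13 is itself a member here, summed to 2624 to 9116 in water and 2215 to 20287 in TDCA libraries. Which tissue these transcripts came from was not tested.

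The posterior edge of the Hox profile varied along with these markers. Hoxb9 (ENSMUSG00000020875), the most abundant group 9 gene, had 64.9, 225, 319, 50.2 and 263.9 normalized counts in water 1 to 5 and 267, 91.8, 202, 365 and 224 in TDCA 1 to 5. Its 3 lowest libraries were water 4, water 1 and TDCA 2, the 3 highest in Gata4 and Lct. Hoxc9 (ENSMUSG00000036139), which sets thoracic identity in the spinal cord, had 2.40, 49.3, 38.7, 15.5 and 20.8 in water and 44.6, 8.16, 46.3, 77.1 and 94.9 in TDCA. Its 3 lowest libraries were the same 3. They were also the 3 lowest for Hoxb5, Hoxb6 and Hoxb7, while the highest values of Hoxa3, Hoxa4 and Hoxc4 lay in TDCA 2 and those of Hoxa5 and Hoxa6 in water 4.

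The share of groups 9 and 10 in the summed Hox level per kb was 3.68% in water 4, 4.23% in TDCA 2 and 6.83% in water 1, the 3 lowest values. It ran from 7.96% to 12.8% in the other 7, with the highest in water 3, TDCA 3 and water 5. Cluster a had its highest shares in the same 3 libraries, with 15.5%, 15.3% and 12.9% of the level in water 4, TDCA 2 and water 1 and 5.19 to 9.81% elsewhere. Both groups of mice held libraries of each kind, and the group means of the share of groups 9 and 10 were 8.65% ± 3.66 in water and 8.77% ± 3.07 in TDCA (SD, n = 5 each).

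Hoxa9 (ENSMUSG00000038227), also known as a leukaemia gene, had 0, 1.12, 13.96, 3.59 and 0.868 normalized counts in water 1 to 5. In TDCA 1 to 5 it had 10.5, 3.06, 46.3, 24.0 and 37.3. Its 4 highest libraries were TDCA 3, TDCA 5, TDCA 4 and water 3, of which all but TDCA 5 were the Car1-rich ones. Hoxa10 (ENSMUSG00000000938), best known from the uterus and the lumbar spine, was at 0 in water 1, 2 and 4 and in TDCA 1 and 2. It had 4.30 in water 3, 0.868 in water 5, and 22.7, 14.6 and 11.5 in TDCA 3, 4 and 5. Hoxd9, a limb and trunk gene, had 25.3, 18.0 and 15.97 in TDCA 3, 4 and 5 and at most 9.56 elsewhere, and Hoxc10, a lumbar motor neuron gene, had 6.11, 18.0 and 11.5 there and at most 3.47 elsewhere. TDCA 5 shared these Hox values with TDCA 3 and 4 at a Car1 level of 38.1 and an Aqp8 level of 0.887.

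**Figure D2:**
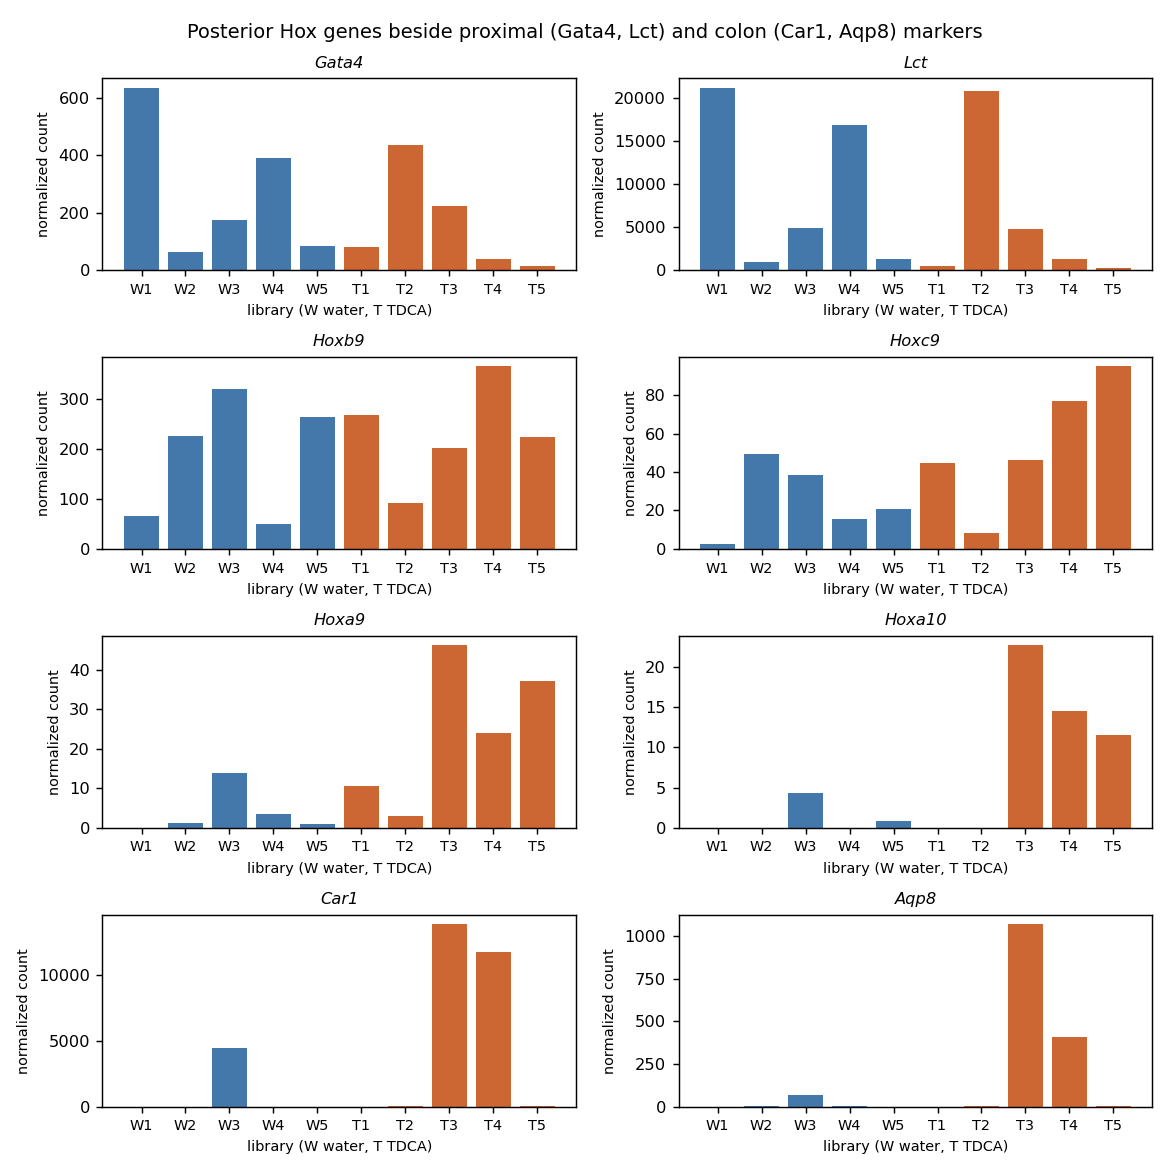
Normalized counts per library (W1 to W5 water, T1 to T5 TDCA) of 2 proximal markers, 4 Hox genes of groups 9 and 10, and 2 colon markers. Hoxb9 and Hoxc9 are lowest in W1, W4 and T2, where Gata4 and Lct are highest, and Hoxa9 and Hoxa10 are highest in T3, T4 and T5, of which T3 and T4 are rich in Car1.

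The comparison of TDCA with water asks whether the ileal Hox code differed after 4 weeks of the bile acid. No Hox gene passed the test. Limma called 0 of 17507 genes (0%) at an adjusted p under 0.05, and the smallest adjusted p of a Hox gene was 0.448. Across all genes 1919 had an unadjusted p under 0.05. With the quasi-likelihood test of edgeR the count was 0 (1755 unadjusted). DESeq2 on the recovered reads called 25 genes, none of them Hox. At an unadjusted p under 0.05 it had 9 of the 38 Hox members and 2214 of the 42989 genes. In the authors' deposited table there were 25 genes of 13800 (0.181%) that passed, with 0 of the 16 Hox genes that had an adjusted p there. The smallest Hox value in the authors' deposited table was that of Hoxb4 (adjusted p = 0.238).

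All 21 tested members had the higher mean in TDCA ilea, against 47.9% of all genes tested. Their log2 fold changes, on the scale of normalized count + 1, had a median of 0.59 and ran from 0.33 (Hoxa3) to 2.58 (Hoxa9), and the median of all genes was −0.01. These members share libraries and tissue composition and are not independent of each other, and Hoxa9 passed the filter mainly through its TDCA libraries. At an unadjusted p under 0.05, 5 were higher (Hoxa9, Hoxa7, Hoxb4, Hoxc4 and Hoxc5) and 0 lower, where 5.95% of all genes were higher. Without both water 1 and TDCA 5 the median was 0.29 and 3 were higher at that threshold, as were 2.15% of all genes.

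**Figure D3:**
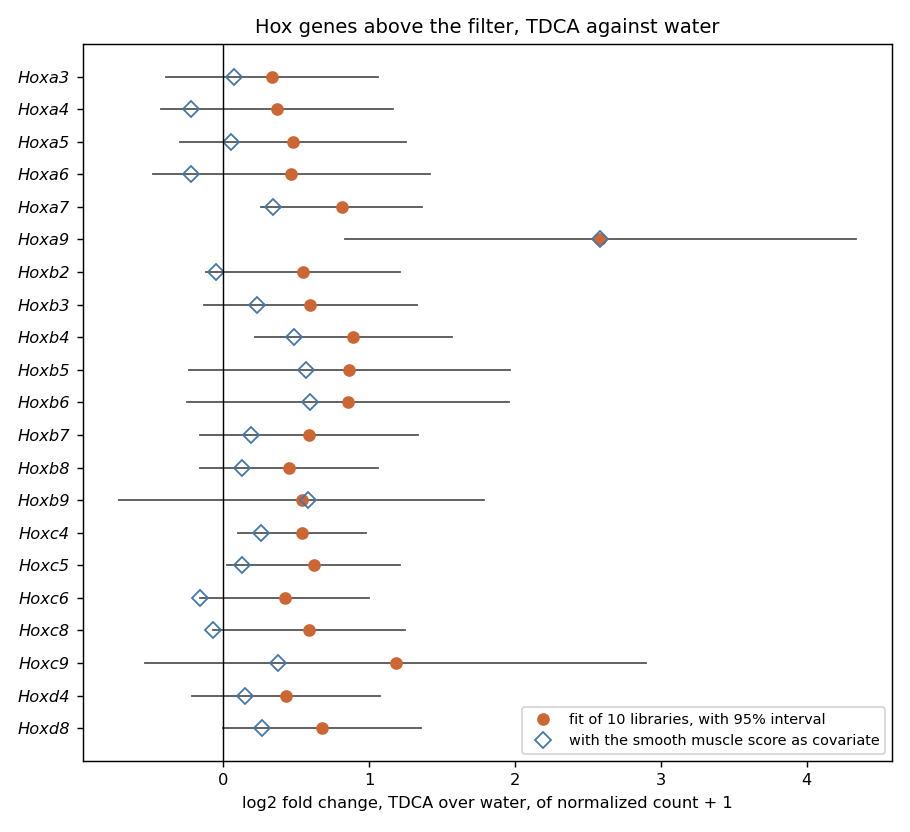
Log2 fold change of normalized count + 1, TDCA over water, for the 21 Hox genes above the filter, with 95% intervals from limma over 10 libraries (circles, n = 5 each) and the value after adjustment for a score of smooth muscle genes (diamonds). All circles lie right of 0, while 5 of the 21 diamonds lie left of it.

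Levels of smooth muscle genes varied along with this shift, and in bulk tissue more cells of a type cannot be told apart from more RNA per cell. The summed level of 10 smooth muscle genes was 72338, 210513, 95766, 179454 and 114550 normalized counts in water and 205675, 219276, 160989, 165402 and 280433 in TDCA libraries. All 10 had the higher mean in TDCA (median log2 fold change 0.68, 7 at an unadjusted p under 0.05, 0 called). Water 1 was lowest in that sum and lowest for 16 of the 21 tested Hox genes, and TDCA 5 was highest in it and highest for 7 of them. TDCA 4, in the middle of the sum, was highest for another 7. When the mean centred log2 level of these 10 genes (the muscle score) was a covariate, the Hox median was 0.19, 16 of 21 were higher and 1 passed the unadjusted threshold. Hoxa4, Hoxa6, Hoxb2, Hoxc6 and Hoxc8 were then below 0. The muscle genes themselves had the higher mean in TDCA, so this fit cannot tell muscle content from treatment. Among all genes, 1.88% were higher at an unadjusted p under 0.05 in this fit, against 5.95% without the covariate. The part of muscle content in the Hox values was not tested.

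Other stromal lists had higher means in TDCA too, with 0 genes called in each. Fibroblast genes were higher in 10 of 10 (median log2 fold change 0.38) and enteric glial genes in 5 of 6 (0.58). Enteric neuron genes were higher in 8 of 10 (0.35) and endothelial genes in 5 of 7 (0.27). Epithelial genes were lower in 8 of 8 (−0.24), and their sum ran from 263362 to 343929 in water and from 168561 to 334893 in TDCA libraries, with TDCA 5 lowest. B cell genes were higher in 6 of 6 (0.31) and T cell genes in 3 of 6 (0.03). Proximal markers were lower in 5 of 6 tested (−0.54), distal ileum markers in 6 of 7 (−0.34) and colon markers in 3 of 5 (−0.02).

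Among the anterior genes, Hoxa2, a gene of the second pharyngeal arch, had means of 6.60 ± 4.57 in water and 5.21 ± 3.19 in TDCA (SD, n = 5 each) with overlapping ranges (exact p = 0.690).

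Hoxb3 (ENSMUSG00000048763), a hindbrain and pharyngeal gene, had 78.1, 248, 219, 161 and 236 normalized counts in water and 344, 188, 171, 405 and 290.1 in TDCA libraries. The ranges overlapped, with TDCA 4 highest and water 1 lowest, and the log2 fold change was 0.60 (SE 0.34, limma adjusted p = 0.521), and 0.31 without water 1. Hoxb4 (ENSMUSG00000038692), a gene of blood stem cells and the hindbrain, had 84.1, 275, 259.9, 197 and 221 in water and 447, 253, 271, 461 and 416 in TDCA. TDCA 1, 4 and 5 lay above all water values, and TDCA 2 and 3 lay within their range. Its log2 fold change was 0.89 (SE 0.31, limma adjusted p = 0.448), and 0.54 without both water 1 and TDCA 5.

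Among the mid-cluster genes, Hoxb5 (ENSMUSG00000038700), which acts in vessel and enteric neuron development, had 66.1, 262, 381, 116 and 243 normalized counts in water. In TDCA it had 470.0, 172, 200.02, 554 and 423. The ranges overlapped, and TDCA 1, 4 and 5 were above every water library. Hoxb6 (ENSMUSG00000000690), a trunk gene and the highest Hox gene here, had 115, 435, 537, 154 and 365 in water and 643, 223, 356, 796 and 727 in TDCA. It had the same 3 libraries on top. Their log2 fold changes were 0.87 (SE 0.50, limma adjusted p = 0.532) and 0.86 (SE 0.50, limma adjusted p = 0.538), and without water 1 they were 0.51 and 0.55. Without water 1, water 4 and TDCA 2, the 3 libraries highest in Gata4, that of Hoxb6 was 0.46. The same 3 were the lowest for Hoxb6 itself, so this refit is no test of gut position.

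Hoxc6 (ENSMUSG00000001661) and Hoxc8 (ENSMUSG00000001657), which specify brachial motor neurons and the thoracic skeleton, followed another order. Hoxc8 had 151, 494, 163, 359 and 289.9 normalized counts in water and 436, 327, 342, 377 and 535 in TDCA libraries. Hoxc6 had 139, 371, 180.5, 292 and 240 in water and 326, 258, 224, 315 and 476 in TDCA. For both, water 1 was lowest, water 3 second lowest and TDCA 5 highest, as for the smooth muscle sum, and water 2 and water 4 were the highest water libraries in all 3. The log2 fold changes were 0.59 (SE 0.30, limma adjusted p = 0.493) for Hoxc8 and 0.42 (SE 0.27, limma adjusted p = 0.566) for Hoxc6, and −0.07 and −0.16 after adjustment for that muscle score. Without water 1 they were 0.39 and 0.24, and without TDCA 5 that of Hoxc6 was 0.27.

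Hoxa7 (ENSMUSG00000038236), a trunk gene of cluster a, was the 1 tested member whose groups did not overlap, where 0.577% of all tested genes had TDCA values all above water. It had 40.8, 79.6, 35.4, 77.7 and 37.3 normalized counts in water and 83.1, 85.7, 86.5, 84.0 and 113 in TDCA libraries. Water 2 and 4 lay just below the lowest TDCA library and the other 3 far below. The log2 fold change was 0.81 (SE 0.25, unadjusted p = 0.00747 and adjusted p = 0.448 in limma). The two-sided exact permutation p was 0.00794, the smallest that 5 against 5 allows, unadjusted over the 27 members so tested. Hoxa7 was named for its small limma p in these same values, so the permutation p is no independent support for a difference. After adjustment for the muscle score the log2 fold change was 0.34. Hoxb7 (ENSMUSG00000038721), its paralogue, had 33.6, 149, 126, 82.5 and 108 in water and 131, 93.9, 146, 169 and 146 in TDCA, with overlapping ranges and a log2 fold change of 0.59 (SE 0.34, limma adjusted p = 0.533), which was 0.24 without water 1.

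**Figure D4:**
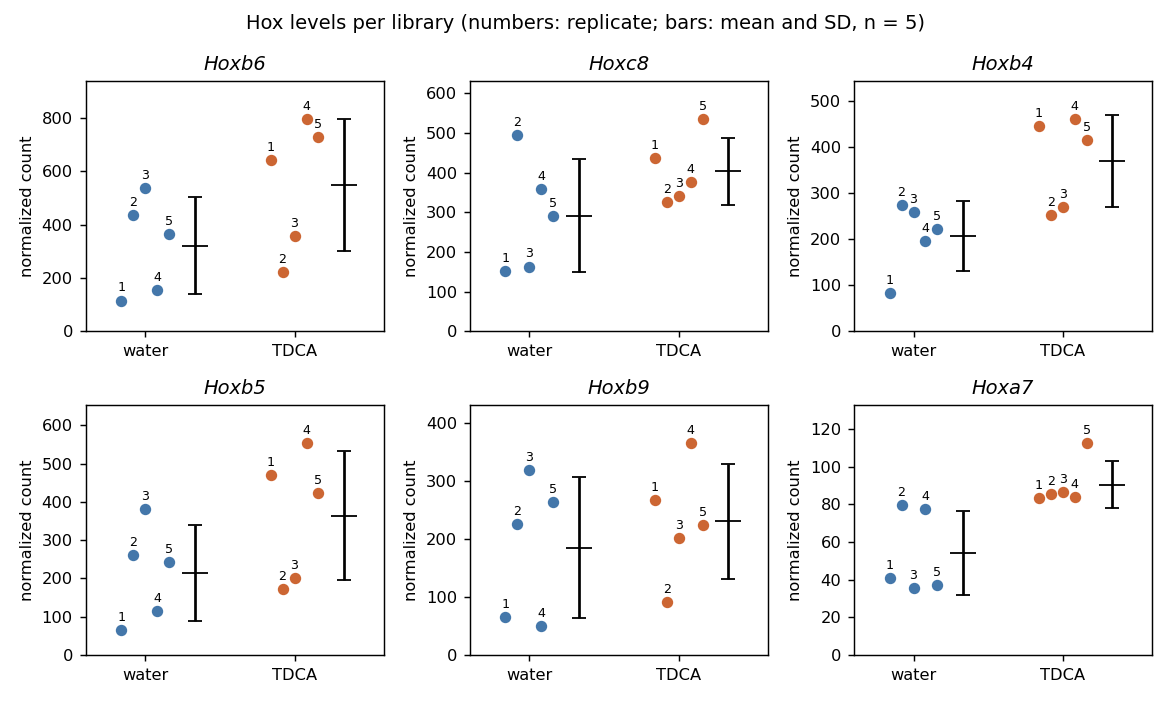
Normalized counts of 6 Hox genes in each library (points, numbered by replicate), with the group mean and SD (n = 5 each) beside them. Only in Hoxa7, among these 6, do all TDCA points (83.1 to 113) lie above all water points (35.4 to 79.6). Water 1 is the lowest point in Hoxb6, Hoxc8, Hoxb4 and Hoxb5.

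The other 10 tested members of groups 2 to 8 had overlapping ranges in the 2 groups, and their limma adjusted p ran from 0.448 (Hoxc4) to 0.722 (Hoxa3). Hoxb2, a hindbrain gene, ran from 44.4 to 117 normalized counts over the 10 libraries, and Hoxa3, needed for the thymus and parathyroid, from 18.2 to 80.6. In group 4, Hoxa4 ran from 12.01 to 48.0, Hoxc4 from 73.3 to 177 and Hoxd4 from 13.96 to 40.8. Of these Hoxc4 had an unadjusted p under 0.05, with means of 104 ± 27.9 in water and 149 ± 24.0 in TDCA (SD, n = 5 each, log2 fold change 0.54, SE 0.20, limma adjusted p = 0.448).

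Hoxa5, which acts in lung, stomach and gut maturation, ran from 19.1 to 77.7, and Hoxa6 from 3.60 to 29.9. Hoxc5 ran from 45.6 to 156, with means of 83.1 ± 25.6 in water and 128 ± 36.1 in TDCA and a log2 fold change of 0.62 (SE 0.27, limma adjusted p = 0.450). Hoxb8, the miR-196 target whose site is shown above, ran from 45.6 to 152, with a log2 fold change of 0.45 (SE 0.28, limma adjusted p = 0.557). Hoxd8, the highest gene of cluster d per kb, ran from 19.2 to 94.0, and its log2 fold change was 0.68 (SE 0.31, limma adjusted p = 0.457).

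Of the posterior genes, Hoxa9 had the largest log2 fold change, 2.58 (SE 0.80, unadjusted p = 0.00738 and adjusted p = 0.448 in limma), with means of 3.91 ± 5.78 in water and 24.2 ± 18.0 in TDCA. Its ranges overlapped through water 3 and 4 and TDCA 1 and 2. Hoxa9 passed the filter mainly through its TDCA libraries, so its p and the refits that follow are no independent support for a difference. Without water 3, TDCA 3 and TDCA 4, the Car1-rich libraries, the value was 2.56, and without the 3 Gata4-rich libraries 2.78. With all libraries and a pseudocount of 8 in place of 1 it was 1.32, and with a pseudocount of 0.5 it was 2.93. Hoxa10 had means of 1.03 ± 1.86 and 9.76 ± 9.80 with overlapping ranges (exact permutation p = 0.167). Hoxb9 had a log2 fold change of 0.54 (SE 0.56, limma adjusted p = 0.737), and −0.05 without the 3 Gata4-rich libraries. Those 3 were also the lowest for Hoxb9 itself, so this refit is no test of gut position. Leaving out 1 library moved the Hoxb9 value to 0.25 (water 1), 0.16 (water 4), 0.34 (TDCA 4), 0.82 (water 3) or 0.83 (TDCA 2). Hoxb13 was at 0 in all 5 water libraries and had 1, 4, 1, 2 and 0 reads in TDCA 1 to 5 (exact permutation p = 0.0476, unadjusted), all near the limit of 3 reads.

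A pair of noncoding loci at the posterior end of cluster b followed its genes from library to library. Gm53, a noncoding gene that GENCODE M21 places between Hoxb13 and Hoxb9, had 63.7, 463, 687, 83.7 and 415 normalized counts in water and 680.0, 207, 275, 927 and 777 in TDCA. Mir196a-1, the miR-196a locus nearby, had 12.01, 52.7, 76.3, 10.8 and 60.8 in water and 147, 36.7, 42.8, 141 and 130 in TDCA. Total RNA reads over the hairpin measure the transcript around it, not the mature miRNA. Both loci were lowest in water 1, water 4 and TDCA 2. Their log2 fold changes were 1.06 (SE 0.75) and 1.37 (SE 0.63), with limma adjusted p of 0.607 and 0.460. Of 15 noncoding RNAs of the clusters, 4 were tested and 4 had the higher mean in TDCA (median 0.68), with Gm53 highest, Hoxb3os at 0.71 and Hoxd3os1 at 0.65, and 0 were called.

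Not all listed partners and regulators passed the filter, and 0 of those tested were called. Of the 9 cofactor genes of the Pbx, Meis and Pknox families, 9 were tested and 7 had the higher mean in TDCA (median log2 fold change 0.35, 4 at an unadjusted p under 0.05). Meis2 was at 0.69 (SE 0.22) and Meis1 at 0.66 (SE 0.22). Meis1 and Meis2 were both lowest in water 1 and highest in TDCA 5, as was the smooth muscle sum. Cdx2 had 1474 to 3492 normalized counts and Cdx1 500.0 to 1010, and both had the lower mean in TDCA, with log2 fold changes of −0.43 (SE 0.17) and −0.36 (SE 0.17). TDCA 5 was lowest for Cdx2 and second lowest for Cdx1.

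The chromatin machinery that keeps Hox genes off or on showed no common direction. Of 18 Polycomb genes, whose products silence Hox clusters, 11 were higher and 7 lower with 0 called (median log2 fold change 0.02), and the smallest unadjusted p belonged to Eed (−0.17) and Cbx2 (−0.30). Of 10 Trithorax and activating genes, 2 were higher and 8 lower with 0 called (median −0.03), with Rbbp5 at −0.24 and Psip1 at 0.41. Of 18 listed genes of retinoic acid, the signal that induces 3′ Hox genes in the embryo, 12 were tested. Of these, 5 were higher and 7 lower with 0 called (median −0.02). Aldh1a1, a retinoic acid synthesis enzyme, was at −0.98 (SE 0.31, limma adjusted p = 0.448). Its highest values were in water 1 and water 4, at 29206 and 23648, and the other 8 libraries had 5397 to 12978. Rara, a retinoic acid receptor, was at −0.27.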

How the data were processed

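Ribosome-depleted total RNA of 10 distal ilea was sequenced, and replicates are numbered as in the labels. The authors deposited normalized counts, a signal made by dividing reads by a size factor per library, and a DESeq2 table of treatment against control with log2 fold changes, Wald scores and p-values before and after adjustment, per the file headers. DESeq2 1.28.0, MultiQC 1.9 and GRCm39 are named in the submitters' processing notes. Not given in the sources used here were the aligner, the counter, its strand setting and the annotation.

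Within a library 100% of values were whole multiples of 1 read (tolerance 1e-04 of a read), so reads were recovered. Groups were compared mainly by limma-trend, robustly moderated (R 4.3.3, limma version 3.58.1), two-sided, fitted to log2 of the normalized count + 1 over 17507 genes with at least 10 in 5 libraries, with Benjamini-Hochberg adjustment and a threshold of 0.05. Log2 fold changes on that scale understate the change of low genes. Tests on reads (edgeR 4.0.16, DESeq2 1.42.0, limma-voom) were alternatives, beside other pseudocounts, filters and normalizations, left-out libraries, a replicate block and marker scores as covariates. Single genes were compared by exact permutation. The limma, edgeR and DESeq2 steps were tested on simulated counts. The limit for a count of 0 covers counting error alone. Exon lengths, gene neighbours and overlaps came from GENCODE M21 (GRCm38), matched by gene identifier for 38 of 38 members, and sequences from RefSeq (GRCm38.p6) or GENCODE M21, a build other than the authors' GRCm39.

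The members and lists were chosen with earlier results of these data known. Full values are given for the 8 members highest per kb and the 3 with the smallest p per direction (none was lower), and from other lists for the 2 tested genes with the smallest p and Cdx1, Cdx2 and Meis1. Hoxa2, Hoxa10, Hoxb13, Hoxc9, Hoxc10 and Hoxd9 and the markers Gata4, Lct, Car1, Aqp8, Fabp6, Fabp1, Slc40a1, Onecut2, Cybrd1, Gm53 and Mir196a-1 were singled out after their values were seen. All lists had 0 genes called. Some genes that this rule covers are not reported here.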

Additional observations from a re-analysis of the deposited data

Results flagged for a closer look

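Within the 40 groups of 5 libraries checked (14 Hox genes, 4 position markers, Gm53 and Mir196a-1 in each treatment), a library stood apart from the other 4 in 6. Chance alone flags about 1 in 20 groups only where values are normally distributed and groups are not picked by their values. The measure is the gap to the nearest library divided by the range of the group, for which Dixon's limit with 5 samples is 0.71. Hoxa7 stood apart in TDCA 5 (113 normalized counts and a ratio of 0.887), Hoxa9 in water 3 (13.96, ratio 0.743) and Hoxa10 in water 3 (4.30, ratio 0.798). Lct stood apart in TDCA 2 (20823, ratio 0.782), Car1 in water 3 (4406, ratio 0.999) and Aqp8 in water 3 (67.7, ratio 0.967). Water 3 was the library that stood apart in 4 of the 6, for 2 posterior Hox genes and 2 colon markers. Of the flagged genes, Hoxa10, Lct, Car1 and Aqp8 were picked after their values were seen. Hoxa7 and Hoxa9 were named for their small limma p in these same data. None of the 6 flags is therefore independent support.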

How the results depend on the processing

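No Hox gene was called under any of the 26 alternatives, and 25 of them called 0 genes, DESeq2 calling 25. Of 259 recomputed log2 fold changes of the 10 named Hox genes, 256 kept their sign. The exceptions were Hoxc8 (−0.069) and Hoxc6 (−0.16) after adjustment for the muscle score and Hoxb9 (−0.049) without water 1, water 4 and TDCA 2, a setting chosen after seeing the data, as was leaving out water 3, TDCA 3 and TDCA 4. The cause was not tested. The count of tested Hox genes higher at an unadjusted p under 0.05, 5 in the main test, was 1 with the muscle score as a covariate, 3 with the epithelium score and 3 without both water 1 and TDCA 5. The share of all genes higher at that threshold moved too, from 5.95% in the main test to 1.88%, 2.67% and 2.15%. Leaving out 1 library at a time gave 3 Hox genes (without water 5, 4.68% of all genes) to 10 (without water 2, 9.1%). In these fits 20 to 21 of the 21 members had the higher mean in TDCA. Without water 1, water 4 and TDCA 2 it was 19 of 21. Replicate numbers shared by the groups were not treated as pairs. Correlations of same-numbered deviations were −0.15 to 0.17, and 1 of 5 libraries was closest to its own number. Such values cannot exclude a pairing, and the other numbers in the sample titles were not checked. The replicate block gave 5 Hox genes higher at an unadjusted p under 0.05 (5.67% of all genes). It gave 21 of 21 higher means, 0 calls and a smallest Hox adjusted p of 0.544 in limma. Members passing the detection filter numbered 16 to 27 under other minimums. Depth limits the genes under the filter, which rest on at most 29 reads in a library.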
